A study of Arabidopsis thaliana with 16 samples.

Results

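Open flowers of Arabidopsis thaliana were compared with siliques, the pods that follow them, on 4 ATH1 arrays of 16 in the series. The transcripts higher in flowers were then set apart by whether isolated pollen grains also carried them at a high level. All plants were of the Columbia ecotype, and every sample type had 2 arrays that the labels call biological replicates. The flower group was open flowers, and the silique group was fruits harvested 2 weeks after the plants bolted, so that neither the age of the single fruits nor the stage of their seeds is given. Both came from an earlier expression study, as did the arrays of mature pollen grains sorted by flow cytometry, of rosette leaves taken after bolting and of 7-day seedlings grown on plates. Ovules dissected from unpollinated pistils, whole unpollinated pistils and root hairs taken from seedlings, from other experiments, complete the series. No group carried a mutation or a treatment.

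An open flower is a mixture of sepals, petals, stamens with their pollen, nectaries and a pistil with unfertilised or newly fertilised ovules. After fertilisation the outer organs are shed, the wall of the pistil grows into the green valves of the silique, and the ovules become seeds with an embryo, an endosperm and a coat. Pollen is a very different source of RNA from the organs around it: a mature grain holds a store of transcripts for wall enzymes, ion pumps, the cytoskeleton and signalling that serve the growth of the pollen tube. In whole organs, fewer cells of a type and less RNA per cell cannot be told apart.

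The members of the comparison were all 22746 probe sets other than the array's 64 controls, of which 15576 carried the name of 1 gene here. The values were the deposited linear intensities, to which 71.9 was added before log2 was taken, and every log2 difference below is flower minus silique on that scale, which understates the change of dim probe sets. Intensities are compared between sample types for the same probe set only. An intensity over 216, 3 times the number added, was taken as above the detection level. By limma over all 16 arrays, 2607 probe sets (11.5%) were higher in flowers and 9092 (40.0%) higher in siliques at an adjusted p under 0.05. With a log2 difference of at least 1 as well, called 2-fold here, 908 (3.99%) were higher in flowers and 1410 (6.20%) in siliques. The 2 silique arrays were brighter, with median intensities of 252 and 243 against 206 and 209 on the flower arrays, and over all probe sets the median difference of log2 values was -0.14. The balance of the calls moved with the scaling of the arrays. Flowers held 22.3% of all calls and 39.2% of the 2-fold calls on the deposited scale, 46.5% and 53.8% after quantile normalization, and 57.6% and 58.0% after scaling to the 75th percentile. The median difference over all probe sets was -0.02 after the former and 0.07 after the latter. The results below rest mainly on the 2-fold calls, and the counts of a gene list or family are to be read against the shares over all probe sets, 11.5% in flowers and 40.0% in siliques.

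The labels were checked against marker genes. Listed genes without a probe set named here were left out, and the rest are called measured. That left 16 of 35 pollen genes, 7 of 25 of the tapetum and pollen coat and 5 of 21 of seed storage and late embryogenesis. Of secondary wall and lignin genes 2 of 28 were left, and of nectary genes 1 of 6. Of the 16 pollen genes, 13 lay above the detection level on both flower arrays and none on both silique arrays. SWEET9, the sucrose transporter of the nectary, had intensities of 3061 and 2878 on the flower arrays and 117 and 120.1 on the silique arrays. LEC1, a regulator of the embryo, was at 1931 and 2059 in siliques and 191 and 222 in flowers. Markers of the tapetum, the anther layer that feeds young pollen, were above the detection level for 2 of 7 genes in flowers and for 2 in siliques. Of 5 genes of seed storage and late embryogenesis, 1 was above it in siliques. None of 7 root hair genes passed it in either organ. HA7 and PERK12, 2 of these, were above it in pollen and were called higher in flowers (1.06 and 0.58).

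To ask which flower transcripts are also those of pollen, every probe set was placed in 1 of 3 classes from arrays other than the 4 compared. Pollen-high were the 1134 probe sets (4.99% of all) above the detection level on both pollen arrays and at least 1 log2 unit above the highest of leaves, seedlings, ovules and unpollinated pistils. Pollen-low were the 18304 (80.5%) above it on neither pollen array, and pollen-shared the other 3308. Of the pollen-high probe sets, 704 were higher in flowers, which is 62.1% of them against 11.5% over all probe sets, and 130 were higher in siliques, 11.5% against 40.0%. By the 2-fold rule 374 were higher in flowers, 33.0% against 3.99%, and 24 in siliques. Their median log2 difference was 0.44, where that of all probe sets was -0.14. Of the pollen-low probe sets, 1690 (9.23%) were higher in flowers, 499 of them 2-fold (2.73%), and 7368 higher in siliques. In the shared class 213 (6.44%) were higher in flowers and 1594 in siliques. Counted from the other side, 41.2% of the 908 probe sets 2-fold higher in flowers were pollen-high, 55.0% pollen-low and 3.85% shared. This split holds for the deposited scale, since other scalings also change the classes. After quantile normalization, 1114 such probe sets held 431 pollen-high, 466 pollen-low and 217 shared ones. After scaling to the 75th percentile, 1200 held 495 pollen-high, 260 pollen-low and 445 shared ones.

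**Figure D1:**
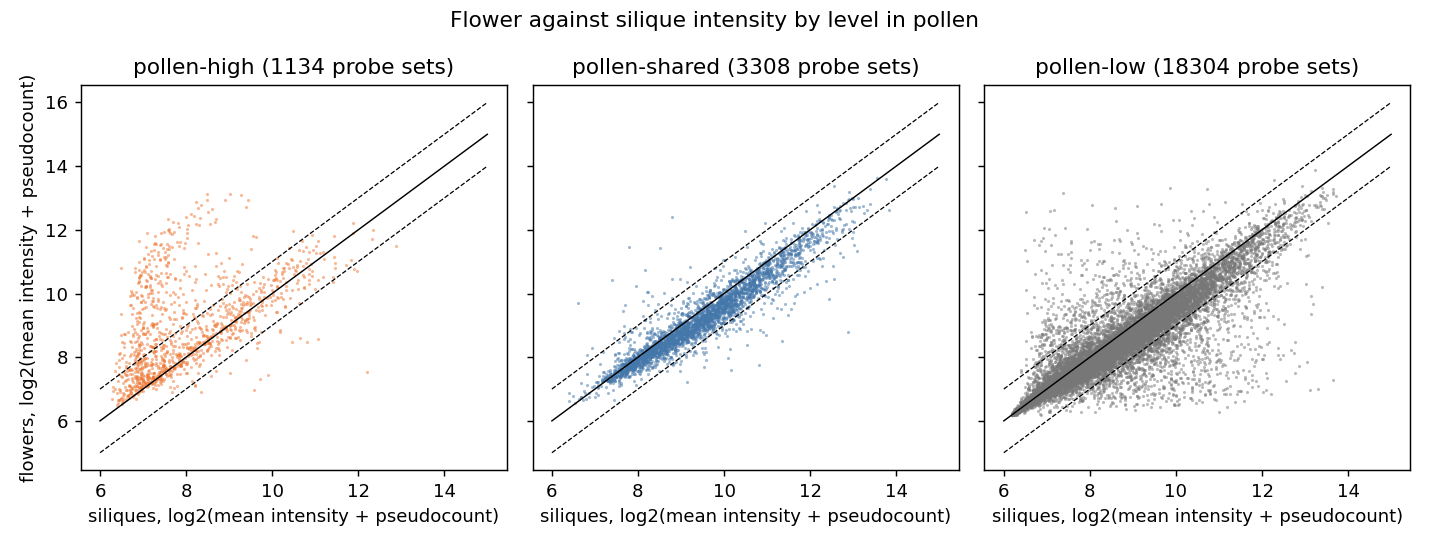
Mean intensity in flowers (vertical) against siliques (horizontal), both as log2 of the intensity plus 71.9, 1 point per probe set, in a panel for each pollen class; the solid line marks equal values and the dashed lines a log2 difference of 1. In the pollen-high panel the 374 probe sets 2-fold higher in flowers lie above the upper dashed line and the 24 2-fold higher in siliques under the lower one.

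The share of calls rose with the height in pollen. Among the 420 probe sets whose pollen level stood 1 to 2 log2 units above the highest of the other 4 tissues, 26.0% were higher in flowers and 22.6% higher in siliques. The share higher in flowers was 61.9% of 226 at 2 to 3 units, 84.1% of 164 at 3 to 4, 94.7% of 113 at 4 to 5, and 99.5% of 211 at 5 or more. By the 2-fold rule the shares were 2.86%, 6.19%, 31.1%, 78.8% and 98.6%. The median log2 difference went from 0.05 in the lowest bin to 3.23 in the highest. At the edge of the class, AT2G25530 and GLE1, which stood 1.06 above the other 4 tissues in pollen, were just inside, and AT1G60610, at 1.00 after rounding up, and AT5G40920, at 0.97, were just outside.

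**Figure D2:**
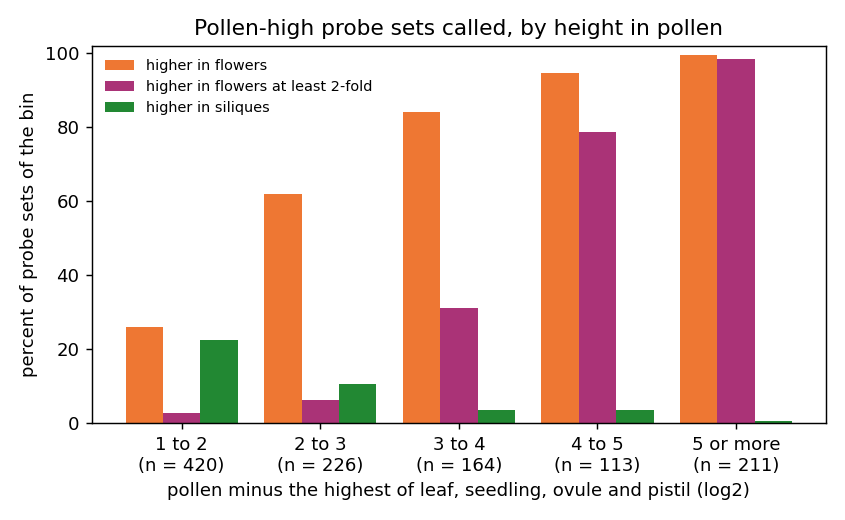
Percent of the pollen-high probe sets called (vertical) in bins of the log2 height of pollen over the highest of leaf, seedling, ovule and unpollinated pistil (horizontal, with the number of probe sets). Orange bars, higher in flowers, go from 26.0% to 99.5%, purple bars, 2-fold higher, from 2.86% to 98.6%, and green bars, higher in siliques, from 22.6% to 0.474%.

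The named pollen-high genes with the largest differences include genes for enzymes that cut pectin and for a group of proteins of unknown function. AT3G28980, AT3G28830 and AT3G28750 code for proteins of the DUF1216 type and carry nearby locus numbers on chromosome 3. AT3G28980 had intensities of 3619 and 3955 on the flower arrays, 59.4 and 67.6 on the silique arrays and 6889.7 and 7086 on the pollen arrays, a log2 difference of 4.83 (SE 0.07, adjusted p = 3.9e-16 from limma). AT3G28830 was at 5036 and 5281 in flowers, 112 and 125 in siliques and 10294 and 10920.3 in pollen (4.78), and AT3G28750 at 9182 and 8697 in flowers, 262 and 313 in siliques and 28574 and 28251 in pollen (4.65). For these genes the flower and silique arrays lay far apart, with no overlap, and leaves, seedlings, ovules and pistils were below the detection level.

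Of the other 7 genes, 4 encode enzymes that cut pectin. The polygalacturonase genes AT3G07820, AT5G48140 and PGA4 had flower intensities of 7468 and 7296, of 3914 and 3819 and of 6841 and 6201, against silique intensities of 202 and 254, of 101 and 112 and of 207 and 266. Their log2 differences were 4.64, 4.46 and 4.42. AT3G01270, a pectate lyase, was at 7049 and 6874 in flowers and 221 and 288 in siliques (4.44, SE 0.11, adjusted p = 4.5e-14 from limma). AT4G02250, of the family of invertase and pectin methylesterase inhibitors, was at 4747 and 4694 in flowers and 141 and 162 in siliques (4.42), and AT5G47000, a class III peroxidase, at 3804 and 3777 in flowers and 83.7 and 112 in siliques (4.51). AT3G01240 completed the 10 with 3546 and 3427 in flowers and 75.05 and 92.4 in siliques (4.52). All 10 were brightest on the pollen arrays, and the other 5 sample types were below the detection level. AT3G07820, PGA4, AT3G01270 and AT3G28750 were also above the detection level on at least 1 silique array.

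**Figure D3:**
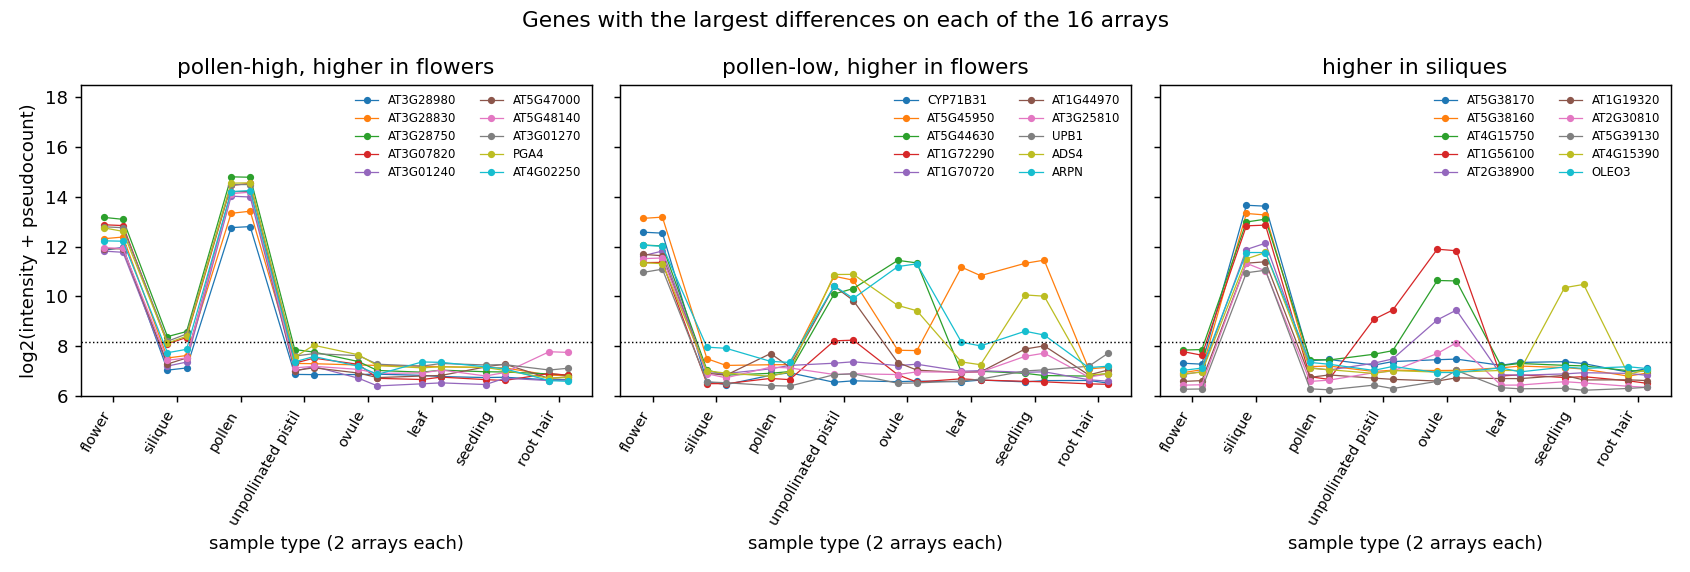
Log2 of the intensity plus 71.9 (vertical) on both arrays of each of the 8 sample types (horizontal) for the 10 genes with the largest differences in each of 3 sets; lines only join the points of a gene, and the dotted line is the detection level. The pollen-high genes share a high level in flowers and pollen and a low one elsewhere, while several of the other flower genes were also above the line in pistils, ovules, leaves or seedlings.

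All 16 measured genes of the pollen list were higher in flowers, 15 of them 2-fold, with a median log2 difference of 2.26. The list came from genes known from pollen, several of them named in the study on these pollen arrays, so that its direction in pollen is no independent evidence. AT59, a pectate lyase, showed the largest difference, with 2394 and 2276 in flowers and 61.5 and 72.7 in siliques (4.11, SE 0.07, adjusted p = 2.3e-15 from limma). PLIM2a, which binds actin, was at 2469 and 2418 in flowers and 108 and 113 in siliques (3.79), and STP11, a sugar transporter of the pollen tube, at 2738 and 2691 in flowers and 171 and 179 in siliques (3.50). Among receptors and their partners, ANX2, a receptor kinase that keeps the tube wall intact, was at 1004 and 942 in flowers and 37.1 and 31.8 in siliques (3.30), while its paralog ANX1 reached 260.2 and 231 in flowers and 52.04 and 44.5 in siliques (1.4). CSLD1, a cellulose synthase-like protein of tip growth, the syntaxin SYP131 and the profilin PRF5 had log2 differences of 3.15, 3.12 and 3.14. MGH3, a histone of the sperm cells, had the smallest, 0.93, with 158 and 143 in flowers and 41.9 and 47.9 in siliques, all 4 values below the detection level.

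Further pollen-high genes, of varied functions, were chosen after their values were seen. RALFL26 and RALFL25, which code for small signal peptides and are next to each other on chromosome 3, were at 4316 and 4167 and at 1547 and 1552 in flowers, against 146 and 167 and 38.3 and 42.7 in siliques (4.24 and 3.85). They were the 2 of 11 measured RALF-like genes that were 2-fold higher in flowers, and RALFL31 was 2-fold higher in siliques (-1.03). PRK4, a receptor-like kinase of pollen, had 1403 and 1349 in flowers and 72.9 and 73.3 in siliques (3.32). GH9A4, of the endoglucanase family, differed by 3.58, EXPB5, a beta-expansin, by 1.77, and TUA1, an alpha-tubulin, by 1.89. TUA1 was above the detection level in every sample type. CIPK12, a protein kinase activated through calcium sensors, was at 3554 and 3529.6 in flowers and 658 and 698 in siliques (2.27). It was also above the detection level in leaves, with 1384 and 1956, and in seedlings, root hairs and pistils. SAG21, a small protein linked to senescence and oxidative stress, was at 5044 and 5137 in flowers and 314 and 372 in siliques (3.64), with 20650.0 and 20781 in pollen and 8579 and 7641 in root hairs. It too was above the detection level in every sample type, with 2924 and 2445 in seedlings and 1986 and 1018 in leaves.

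How far flowers stood above siliques, relative to the pollen level, varied from gene to gene. As a measure, the flower mean minus the silique mean was taken as a percent of the pollen mean, on linear intensities and with no test. Over the 704 pollen-high probe sets higher in flowers the median was 8.39%, with quartiles of 5.59% and 12.7%, and 90% of them lay between 3.25% and 28.9%. Each of the 4 pairs of a flower and a silique array gave a median between 8.26% and 8.66%. These values are positive by the choice of the probe sets. Over all 1134 pollen-high probe sets the median was 5.20%, with quartiles of 0.948% and 9.68%, and 251 were below 0. The percent depends on how the pollen arrays were scaled to the others, and its median over those higher in flowers was 7.86% after quantile normalization and 4.77% after scaling to the 75th percentile.

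Among the 704 the percent was not even along the range of pollen intensity. Its median was 8.43% for 46 probe sets under 500 in pollen, 7.09% for 184 from 500 to 2000, 7.45% for 288 from 2000 to 8000, 10.4% for 131 from 8000 to 16000 and 18.8% for 55 above 16000. The part of the bright end of the array's range in this was not tested. The 16 genes of the pollen list had a median of 9.51%, from 4.12% for the receptor kinase gene AT2G21480 to 20.2% for PRF5. The DUF1216 loci of chromosome 3 (AT3G28750, AT3G28770, AT3G28780, AT3G28790, AT3G28830, AT3G28840 and AT3G28980), a group chosen after its values were seen, had a median of 38.6% over 7 probe sets, from 12.6% for AT3G28840 to 53.3% for AT3G28980. AT3G28840 was at 793 and 604 in flowers and 4816 and 4979 in pollen. AT3G28770 is the member outside the pollen-high class, with 187 and 144 in pollen and 78.7 and 70.4 in flowers, all below the detection level. Its 32.7%, a ratio of values near background, counts in the median.

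**Figure D4:**
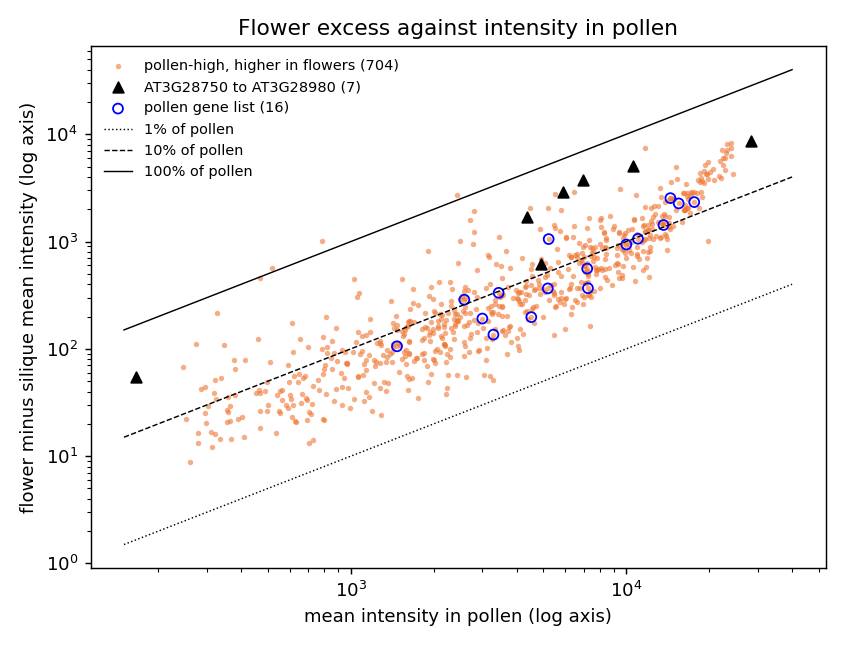
Flower minus silique mean intensity (vertical, log axis) against mean pollen intensity (horizontal, log axis), 1 point per pollen-high probe set higher in flowers (704), with the pollen list as blue circles (16), the DUF1216 loci as black triangles (7) and lines at 1%, 10% and 100% of the pollen intensity. Most points follow the 10% line (median 8.39%), and 6 of the 7 triangles lie above 25%. Among these 6 is AT3G28770 (32.7%), which is not pollen-high and lies below the detection level in pollen and flowers.

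At the ends of this measure, the flower mean minus the silique mean was over 25% of the pollen mean for 50 of the 704 probe sets. It was over 50% for 10 and over 100% for 3. These 3 were AT2G25530 with 129%, AT4G24380 with 112% and AT3G60780 with 109%. AT3G60780 was at 563 and 666 in flowers, 52.1 and 44.3 in siliques and 531 and 504 in pollen, and below the detection level in the other 5 sample types. AT4G24380 was above it on both arrays of every sample type, with 884 and 545 in siliques and 1187 and 819 in pistils. AT2G25530 was above it on both arrays of every sample type except pistils, which had 186 and 230. The smallest values were 1.58% for AT3G27410, 1.71% for AT5G45700 and 1.72% for AT5G55980, with flower intensities of 91.1 and 92.8, of 149.8 and 142 and of 103 and 112, all under the detection level. AT5G45700 did not pass the test with any 1 of the 4 compared arrays left out or with a pseudocount of 1.

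Some pollen-high genes went the other way. Of the 24 that were 2-fold higher in siliques, 17 had a gene name here. The largest difference of these was that of AT3G11180, a 2-oxoglutarate-dependent oxygenase that hydroxylates jasmonic acid. It was at 717 and 672 in siliques, 49.7 and 54.6 in flowers and 498 and 490.2 in pollen (-2.63, SE 0.07, adjusted p = 5.6e-14 from limma), and below the detection level elsewhere. AT1G03920, a protein kinase, was at 2174 and 1976 in siliques, 307 and 304 in flowers and 2984 and 3057 in pollen (-2.51). AT5G55950, of the nucleotide sugar transporter family, had 898 and 882 in siliques against 98.7 and 101 in flowers (-2.48). GH9B5, of the endoglucanase family, and AOP3, of glucosinolate side-chain synthesis, had log2 differences of -2.32 and -1.99. JMT, which makes methyl jasmonate, was also pollen-high and higher in siliques by a small difference, with 5179 and 4921 in siliques, 3229.6 and 3298 in flowers and 3445 and 3921 in pollen (-0.62, SE 0.13, adjusted p = 0.0011 from limma), and after scaling to the 75th percentile it did not pass.

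The 499 pollen-low probe sets 2-fold higher in flowers were split by their level in unpollinated pistils. Both pistil arrays were above the detection level for 340 of them (68.1%), 1 for 27 and neither for 132 (26.5%). Over all pollen-low probe sets, 4.17% of the 8157 seen in pistils and 1.4% of the 9438 not seen there were 2-fold higher in flowers. Since the log2 scale understates the change of dim probe sets, this split depends on the number added. With 1 added, the counts for both and neither pistil array were 420 and 249. With 4 times the main number they were 216 and 52. The pistil and ovule arrays came from a separate experiment. A stricter set of 68 was above the detection level on no array outside flowers and siliques, out of 6556 such probe sets (1.04%), and both flower arrays were above it for 60 of them.

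Of the 10 leading pollen-low genes, 3 make or modify floral volatiles. CYP71B31, a cytochrome P450 that oxidises the floral monoterpene linalool, showed the largest difference of the named genes higher in flowers. It had 6053 and 5894 on the flower arrays and 23.3 and 15.8 on the silique arrays (6.05, SE 0.07, adjusted p = 5.4e-17 from limma), and no other array exceeded 50.02. AT3G25810 (TPS24), a monoterpene synthase, was at 2863 and 2914 in flowers and 46.8 and 34.1 in siliques (4.72), again with no array outside flowers above the detection level. AT5G44630 (TPS11), a sesquiterpene synthase, was at 4213 and 4104 in flowers and 60.3 and 42.2 in siliques (5.11), and was also seen in ovules (2723 and 2533) and pistils (1025 and 1201). Of 5 measured genes of floral volatiles 4 were higher in flowers and none in siliques. The fourth, BSMT1, which makes methyl benzoate and methyl salicylate, was at 208 and 196 in flowers and 75.7 and 63.2 in siliques, all below the detection level (0.96, SE 0.38, adjusted p = 0.046 from limma), and lost its call under several settings. In pistils BSMT1 was at 239 and 234, above that level. Its leaf arrays lay apart, at 597 and 98.0, and the SE rests on the spread within all 8 sample types.

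SWEET proteins carry sugars across membranes, and SWEET9 is needed for nectar secretion. SWEET9 differed by 4.00 (SE 0.07, adjusted p = 2.8e-15 from limma), and no array outside the flower group was above 120.1. After the values were seen, the members with SWEET as their symbol here were counted, which leaves out SAG29, a member under another name. Of 14 such members 7 were higher in flowers and 6 in siliques, 4 and 2 of them 2-fold. SWEET14 was at 1749 and 1921 in flowers and 121 and 105 in siliques (3.37), and it too was below the detection level in all other sample types. SWEET13 was at 2835 and 3098 in flowers and 408 and 452 in siliques (2.60), with 1457 and 1222 in leaves. SWEET4 was at 3182 and 3170.2 in flowers and 302 and 305 in siliques (3.11), with 3872 and 4167 in ovules. The 2 members 2-fold higher in siliques were SWEET7 and SWEET17, a vacuolar fructose carrier.

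The rest of the 10 leading pollen-low genes had varied functions. AT5G45950, of the GDSL lipase family, was at 8939 and 9246 in flowers and 109 and 77.8 in siliques (5.80, SE 0.11, adjusted p = 3.7e-15 from limma), and was also found in leaves (2242 and 1754), seedlings and pistils. AT1G72290, a Kunitz-type protease inhibitor, had 2552 and 2569 in flowers and 18.2 and 18.2 in siliques (4.87). AT1G70720, a pectin methylesterase inhibitor family member, was at 3114 and 3553 in flowers and 50.1 and 47.5 in siliques (4.82), and AT1G44970, a class III peroxidase, at 3229 and 3109 in flowers and 48.4 and 42.05 in siliques (4.79). UPB1, a transcription factor known from roots where it represses peroxidase genes, was at 1928 and 2115 in flowers and 22.6 and 20.5 in siliques (4.48), with no other array above the detection level. ADS4, of the acyl-lipid desaturase family, and ARPN, the plantacyanin of the transmitting tract, differed by 4.37 and 4.1. The ADS4 probe set is of a kind that can bind related transcripts. ADS4 was at 1813 and 1821 in pistils, and ARPN at 2278 and 2468 in ovules.

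Enzymes that loosen the wall of growing cells were also counted after the values were seen. Of 11 measured xyloglucan endotransglucosylase/hydrolases (XTH), 6 were higher in flowers and 1 in siliques, 5 and 0 of them 2-fold. These are 54.5% and 9.09% of those counted, against 11.5% and 40.0% of all probe sets. XTH19 was at 2224 and 2439 in flowers and 95.02 and 84.1 in siliques (3.90, SE 0.10, adjusted p = 6.8e-14 from limma), and XTH18, next to it on chromosome 4, at 328 and 365 in flowers and 62.3 and 32.97 in siliques (1.82). XTH16 was at 667 and 656 in flowers and 118 and 99.9 in siliques (2.02), with 2309.6 and 1419.5 in pistils. Of 11 alpha-expansins, 5 (45.5%) were higher in flowers, each of them 2-fold, and 2 (18.2%) in siliques. EXPA11 was at 1874 and 2180.2 in flowers and 255 and 198 in siliques (2.82), and EXPA8 at 3612 and 4286 in flowers and 788 and 681 in siliques (2.32). EXPA21 went against them with 66.7 and 85.1 in flowers and 1049 and 845 in siliques (-2.78). GH9B13, of the endoglucanase family, had a difference of 2.20.

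The next genes were picked because they were higher in flowers, so that their direction is no result, and 4 of them are known from the cold and dehydration response. COR15A, a chloroplast protein of freezing tolerance, was at 1980.0 and 2104 in flowers and 165 and 134 in siliques (3.26), with 4014 and 4383 in leaves. The dehydrins COR47 and ERD10, neighbours on chromosome 1, were at 7051 and 7081 and at 6002 and 6239.9 in flowers against 715 and 743 and 1613 and 1389 in siliques (3.16 and 1.98). RD26, a NAC transcription factor of the drought response, differed by 2.12. All 4 were pollen-low. GH3.17, an enzyme that joins auxin to amino acids, was at 1986 and 2071 in flowers and 182 and 159 in siliques (3.11), and JAL23, a jacalin-type lectin, at 1525 and 1498 in flowers and 56.9 and 50.9 in siliques (3.65).

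Of the lists of flower and stamen development, 1 of 5 genes of floral organ identity and petal growth, 2 of 7 of the tapetum and pollen coat and 6 of 7 of jasmonate and stamens were called. Of 5 measured genes of floral organ identity and petal growth, BPEp, a bHLH factor that limits petal size, was higher in flowers, with 1595 and 1756 in flowers against 158 and 176 in siliques (2.87, SE 0.09, adjusted p = 8.1e-13 from limma), and the other 4 were below the detection level in both organs and not called. Of 7 genes of the tapetum and pollen coat, AT1G75880 (EXL1), an extracellular lipase, was higher in flowers, with 786 and 788 in flowers against 259.7 and 247 in siliques (1.4). SWEET8, a sugar transporter of the pollen exine pathway, was higher in siliques, with 256 and 261 in flowers against 546 and 583 in siliques (-0.95). AMS and CYP703A2, an early tapetum factor and an enzyme of sporopollenin synthesis, were at 88.05 and 101 and at 22.3 and 25.1 in flowers and at 90.3 and 78.6 and 21.7 and 16.7 in siliques. Of 7 jasmonate and stamen genes, 4 were higher in flowers and 2 in siliques. ARF8, an auxin response factor of stamen and fruit growth, was at 1266 and 1372 in flowers and 498 and 497 in siliques (1.29), and AOC4, an enzyme of jasmonate synthesis, at 1088 and 1055 in flowers and 476 and 452 in siliques (1.09). JAZ1, a repressor of jasmonate responses, was called with 1608 and 1769 in flowers and 926 and 722 in siliques (0.98), but not without the second silique array. LOX3, a lipoxygenase, was higher in siliques, with 142 and 142 in flowers against 335 and 307 in siliques (-0.88).

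In the shared class, 35 probe sets were 2-fold higher in flowers. AT5G48900, a pectate lyase, was at 4997 and 5668 in flowers, 381 and 356 in siliques and 284 and 334 in pollen (3.61, SE 0.11, adjusted p = 6.9e-13 from limma), with 2014 and 1871 in leaves. CES, a bHLH factor of brassinosteroid signalling, was at 1325 and 1280.4 in flowers and 106 and 86.7 in siliques (3.03), with 1776 and 1668 in pistils. The next were AT1G35190, a 2-oxoglutarate-dependent oxygenase (2.90), AT1G48100, of the polygalacturonase family (2.56), and AT1G28710, a nucleotide-diphospho-sugar transferase (2.28).

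On the silique side, of the 1410 probe sets 2-fold higher there, 271 (19.2%) were above the detection level on no array outside flowers and siliques, 203 (14.4%) were leaf-high, and 936 (66.4%) were neither. Leaf-high means above the detection level on both leaf arrays and at least 1 log2 unit above ovules and pistils. These are 4.13% of 6556, 12.7% of 1596 and 6.41% of 14594 probe sets of each kind, where 6.20% of all probe sets were 2-fold higher in siliques. Ovules stood at least 1 log2 unit above pistils for 194 of the 1410, and for 751 of all probe sets.

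A pair of lipid-transfer-type genes had the largest differences of the named genes higher in siliques. AT5G38170 was at 12902 and 12579.7 on the silique arrays and 87.3 and 83.1 on the flower arrays (-6.35, SE 0.08, adjusted p = 1.2e-16 from limma). AT5G38160, with 0 protein-coding genes between them on chromosome 5, was at 10253 and 9822 in siliques and 50.3 and 60.96 in flowers (-6.31, SE 0.07, adjusted p = 5.4e-17 from limma). Both were below the detection level on all 14 arrays other than the siliques. Such close paralogs can share signal on an array, and this was not tested. AT1G19320, a thaumatin-type protein (-4.76), AT2G30810, of the GASA family of gibberellin-responsive peptides (-4.74), and AT5G39130, a germin-like protein (-4.73), were silique-only in the same sense. AT5G39130 was at 1907 and 2051 in siliques and 5.16 and 5.71 in flowers. OLEO3, described with the genes of reserves, was silique-only as well, and the other 4 of the 10 were seen elsewhere. AT4G15750 and AT1G56100, both of the pectin methylesterase inhibitor family, were at 8067 and 8737 and at 7242 and 7388 in siliques against 158 and 161 and 148 and 127 in flowers (-5.19 and -5.14), and at 1524 and 1503 and 3743 and 3583 in ovules. AT2G38900, a serine protease inhibitor, was at 3709 and 4439 in siliques and 43.8 and 54.2 in flowers (-5.10). AT4G15390, an acyltransferase, had a difference of -4.72 and was also present in seedlings, with 1234 and 1358.

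Most measured genes of the seed coat were higher in siliques. BAN and DFR, reductases on the way to proanthocyanidins, were at 5251 and 5619.9 and at 2865 and 3204 in siliques and at 194 and 159 and 91.2 and 100.1 in flowers. Their log2 differences were -4.47 (SE 0.11, adjusted p = 3.3e-14 from limma) and -4.21 (SE 0.10, adjusted p = 2.8e-14 from limma), and both were above the detection level in ovules, BAN with 2334 and 2660.2 and DFR with 403 and 476. AHA10, a proton pump of the same pathway, differed by -1.65. All 3 proanthocyanidin genes were higher in siliques, the third, UGT80B1, by -0.32, a call lost under both other scalings. Of 8 genes of seed coat mucilage 7 were higher in siliques, 5 of them 2-fold, with a median of -1.42. AT3G50990 (PER36), a peroxidase that loosens the outer wall of mucilage cells, was at 1385 and 1143 in siliques and 47.97 and 49.5 in flowers (-3.46). MYB61, a factor of mucilage synthesis, was at 1040.2 and 1039 in siliques and 90.9 and 93.2 in flowers (-2.76), AT4G28370 (FLY1), a ubiquitin ligase, differed by -2.0, and ARA12 (SBT1.7), a subtilase, by -1.50. DELTA-VPE, a vacuolar processing enzyme of the coat's inner layers and chosen after its values were seen, was at 9295 and 9043 in siliques, 829.5 and 670.3 in flowers and 4866 and 4861 in ovules (-3.50).

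Genes of the embryo and of reserves were called in part. LEC1 differed by -2.90 (SE 0.09, adjusted p = 3.9e-13 from limma), and OLEO3, an oleosin of oil bodies, was at 3405 and 3406 in siliques and 58.4 and 67.02 in flowers (-4.69, SE 0.08, adjusted p = 9.1e-16 from limma). Of 4 embryo regulators 3 were higher in siliques, the others being BBM (-0.45) and EEL (-0.62), both below the detection level on all 4 arrays. OLEO3 was the 1 gene of 5 of seed storage and late embryogenesis to be called. Of 3 endosperm genes 1 was higher in siliques (33.3%, near the 40.0% of all probe sets). It was MEA, a Polycomb protein of the endosperm, with 442 and 356 in siliques and 197 and 233 in flowers (-0.71). IKU2, a receptor kinase of endosperm growth, was at 67.1 and 59.1 in siliques and 47.4 and 49.4 in flowers, all 4 below the detection level. Of 4 genes of seed oil synthesis 2 were higher in each organ, but TAG1, an acyltransferase of oil synthesis, turned from -0.23 (adjusted p = 0.025 from limma) to 0.10 after both other scalings and was then not called (adjusted p = 0.41 after quantile normalization and 0.38 after scaling to the 75th percentile). FaTA, a thioesterase that releases fatty acids, was at 689 and 719 in siliques and 190.2 and 175 in flowers (-1.61), while FATB, of the same kind, was slightly higher in flowers (0.37). Other silique genes, chosen after their values were seen, were UMAMIT25, an amino acid exporter of the seed (1982 and 2017 in siliques, 104 and 118 in flowers), scpl20, a serine carboxypeptidase-like protein (8828 and 9153 in siliques and 586 and 576 in flowers), and CYP88A3, an enzyme of gibberellin synthesis (1733 and 1621 in siliques and 205 and 208 in flowers).

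All 5 measured genes of fruit patterning and dehiscence were higher in siliques, 2 of them 2-fold. STK, a MADS-box factor of ovules and of the seed stalk, was at 3085 and 3148 in siliques and 1449 and 1277 in flowers (-1.15). ALC, a bHLH factor of the valve margin, was at 727 and 727 in siliques and 311 and 268 in flowers (-1.15), and SPT, related to it, at 357 and 358 in siliques and 158 and 169 in flowers (-0.87). ADPG1, a polygalacturonase of pod opening, differed by -0.81, and GA3OX1, of gibberellin synthesis, by -0.51, which did not pass under the other scalings. In ovules STK was at 4480 and 5062 and ALC at 1195 and 1143, above siliques. In pistils ADPG1 was at 754 and 626 and SPT at 488 and 451, again above siliques. GA3OX1 was lower in ovules and pistils than in siliques. The 2 measured lignin genes, HCT and CCR1, were 2-fold higher in siliques, with 5622 and 6284 and 2861 and 3089 against 1316 and 1371 and 1020.3 and 1029.7 in flowers (-2.09 and -1.47). A further 5 genes that build the xylan of secondary walls were picked because they were higher in siliques, so that their direction is no result and their values are a description. GUT2, a xylan glycosyltransferase, was at 1563 and 1725 in siliques and 103 and 105 in flowers (-3.29, SE 0.08, adjusted p = 3.1e-14 from limma). GXM3, a glucuronoxylan methyltransferase, was at 721 and 753 in siliques and 34.1 and 36.8 in flowers (-2.91), and IRX15, IRX15-L and PARVUS differed by -2.95, -3.21 and -2.29.

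Glucosidases and glycosyltransferases were counted as families by gene symbol after the values were seen, without members that carry another name or none here. Of 23 beta-glucosidases (BGLU), 11 were higher in siliques, 6 of them 2-fold, and 3 in flowers, 0 of them 2-fold. That is 47.8% and 13% of those counted, near the 40.0% and 11.5% of all probe sets. BGLU45, which acts on lignin precursors, was at 1511 and 1615 in siliques and 105 and 134 in flowers (-3.10), and BGLU29 and BGLU15 differed by -3.09 and -3.05. Of 51 UDP-glycosyltransferases (UGT), 22 were higher in siliques and 8 in flowers, 9 and 3 of them 2-fold. These are 43.1% and 15.7% of those counted, again near the shares over all probe sets. UGT85A3 and UGT85A1, neighbours on chromosome 1, were among the latter (3.08 and 2.32), and UGT84B1, which attaches glucose to auxin, was among the former (-2.59). Of 50 cytochrome P450 genes (CYP), 11 were higher in flowers and 18 in siliques (22.0% and 36.0%), 7 and 4 of them 2-fold, and CYP71B31, CYP71B27 (3.19) and CYP71B38 (2.23) led those of flowers. After quantile normalization the calls were 13 and 11 for CYP, 9 and 17 for UGT, and 5 and 10 for BGLU.

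On the deposited scale the lists of photosynthesis and of cell division had calls in siliques and none in flowers, and after scaling to the 75th percentile 1 gene of cell division was called in flowers. All 15 genes of photosynthesis were higher in siliques, with a median of -0.59, 2 of them 2-fold. LHCB4.2, a light-harvesting protein, was at 6134 and 5890.1 in siliques and 2762 and 2958 in flowers (-1.05, SE 0.11, adjusted p = 1.5e-06 from limma), and PRK, the phosphoribulokinase of carbon fixation, at 5467 and 5528 in siliques and 2725 and 2659 in flowers (-1.01). After quantile normalization 10 of the 15 were called, and after scaling to the 75th percentile 6, none of them in flowers; RCA, the activase of Rubisco, was at -0.35 on the deposited scale and at 0.0055 after the latter. Of 7 genes of cell division 5 were higher in siliques (71.4%, against 40.0% of all probe sets). SYP111, the syntaxin of the dividing cell plate, was at 3139.5 and 3044 in siliques and 731 and 644 in flowers (-2.06, SE 0.11, adjusted p = 3.5e-10 from limma). PCNA1, the replication clamp, differed by -0.62, and the other 3, HIK, CDKB2;2 and PRL, by -0.89, -0.65 and -0.52. Ovules were brighter than siliques for PCNA1 (1639 and 2055 against 930 and 1039), HIK, CDKB2;2 and PRL, but not for SYP111. AUR1 and AUR2 were not called, and both were pollen-high.

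**Figure D5:**
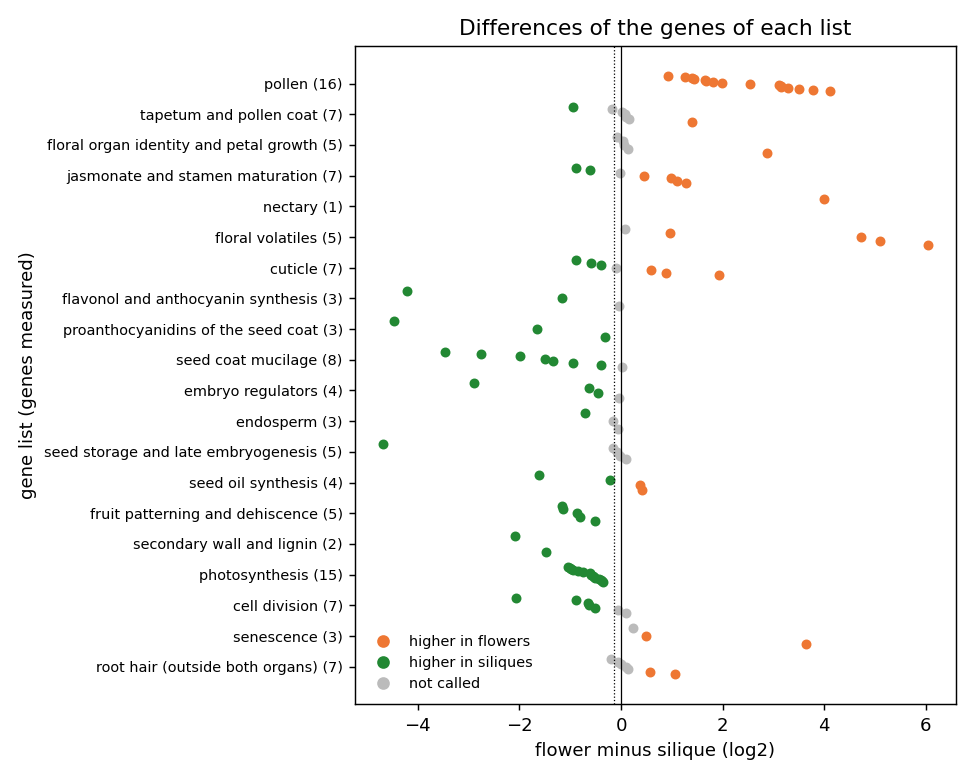
Log2 flower minus silique (horizontal) of each measured gene of the 20 lists (vertical, with the number measured), orange where higher in flowers, green where higher in siliques and grey where not called; the dotted line is the median of all probe sets, -0.14. All 16 pollen genes lie to the right, from 0.93 to 4.11, and the genes of fruit patterning (5), lignin (2), photosynthesis (15) and proanthocyanidins (3) all lie to the left.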

How the data were processed

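The 16 ATH1 arrays cover 8 sample types with 2 labelled biological replicates each, grouped by their labels. The values are the intensities deposited by the authors, who normalized the arrays in dChip and derived expression indices from its probe model. The submitters' processing notes also name GCOS 1.4 and MAS5. No probe-level step was repeated. Here log2(intensity + 71.9) was fitted with limma 3.58.1 in R 4.3.3, with each of the 8 sample types as a mean, which leaves 8 residual degrees of freedom, with a mean-variance trend and Benjamini-Hochberg adjustment over 22746 probe sets. The number added is the 20th percentile of an array's intensities, as the median of the 16 arrays. The other steps ran in Python 3.11.15 with matplotlib 3.10.9, pandas 2.3.3 and numpy 2.4.6. The fit was tested on simulated data.

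Gene names come from the annotation of the platform for 13513 probe sets and from loci in the study's tables for 2063, with 503 probe sets of several genes and 6667 not named here. The neighbours of a gene come from the RefSeq annotation of assembly TAIR10.1. Of 2693 probe sets named by both sources, 62 had different loci. A list gene took its plain probe set of highest mean, and a list gene without a probe set named here counts as not measured. Families were counted by gene symbol, so members under another name or not named here are left out. The genes named are, among probe sets of 1 gene, the 10 with the largest log2 difference higher in flowers and pollen-high, in flowers and pollen-low, and in siliques. To these come the 5 of the shared class, the 5 pollen-high genes most higher in siliques and members of the 20 lists. The ends of the flower excess and the genes nearest the limit of the pollen-high class complete them. All others are said to be chosen after their values were seen. The members and lists were chosen with earlier results of these data known.

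The alternatives comprised pseudocounts of 1 and of 4 times the main value, quantile normalization or a common 75th percentile, omission of dim probe sets, no trend, the 10 arrays of the earlier study, the 4 compared arrays, a replicate block, a smallest fold of 1.2, plain probe sets, other class limits and leaving out single arrays. With 2 arrays per sample type, their number limits the precision, and the p-values measure the spread between arrays whose plants or RNA pools are not further described. Replicate arrays correlated at 0.998 for flowers, 0.996 for siliques and 0.994 for pollen. Single-array detection calls were not used.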

Additional observations from a re-analysis of the deposited data

How the results depend on the processing

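Of 315 recomputed counts and medians, 269 stayed within 1.5 times the reported count, or, for the median flower excess, within 1 SD of its 4 array pairs. Scaling to the 75th percentile gave 5174 probe sets higher in flowers and 3808 in siliques (870 of them 2-fold), with 1667 pollen-high and 2356 pollen-shared probe sets among those higher in flowers. Its 2-fold calls of flowers held 260 pollen-low and 445 pollen-shared probe sets, the former with 166 seen in both pistil arrays and 79 in neither, and its 2-fold calls of siliques held 122 seen nowhere else and 109 leaf-high. Since this scaling also raises the pollen arrays, the pollen classes themselves change under it. All 908 probe sets 2-fold higher in flowers were so after this scaling, and 897 after quantile normalization. Quantile normalization gave 3831 probe sets higher in flowers and 4408 in siliques, with 1152 pollen-shared ones higher in flowers, 217 of them 2-fold, and 121 leaf-high ones 2-fold higher in siliques. A pseudocount 4 times as large gave 548 and 799 2-fold calls in flowers and siliques, with 276 pollen-low (216 seen in both pistil arrays, 52 in neither) and 20 pollen-shared in flowers, and 161 seen nowhere else and 98 leaf-high in siliques. A pseudocount of 1 gave 53 pollen-shared and 249 pollen-low not seen in pistils in flowers, and 440 seen nowhere else in siliques. A smallest fold of 1.2 left 1629 and 4487 calls, with 988 pollen-low and 99 pollen-shared in flowers.

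The pollen-shared count was 391 (78 of them 2-fold) with detection at 2 times the pseudocount, 128 (19) at 5 times, and 322 where pollen-high needed a log2 of 2. The median flower excess was 4.77% (75th percentile), 7.86% (quantile), 8.15% (4 arrays), 8.19% (10 arrays), 9.45% (fold of 1.2), 8.82% (pollen-high from a log2 of 0) and 8.75% (pollen-high by limma), and 8.34% to 8.86% with 1 array left out. Leaving out 1 flower, silique or pollen array gave 2184 to 2584 probe sets higher in flowers and 7308 to 8970 in siliques. The causes of these changes were not tested.

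TAG1 turned from -0.23 to 0.10 under both other scalings, as did RCA, to 0.0055, after scaling to the 75th percentile. Of 187 named genes called, 27 lost the call or turned under at least 1 of 18 alternatives. Same-numbered flower and silique arrays did not deviate together (correlation -0.26), and the numbers are not said to mark a shared origin. With a replicate block 2579 and 8966 probe sets were called in flowers and siliques, and 908 and 1410 of them 2-fold. With the silique numbers crossed, a setting chosen after seeing the data, the calls were 2616 and 9138. Promoter motifs, planned where sequences were given, were not run. No depth applies to arrays, and differences between values near or below the intensity of 216 are close to background.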

Other observations

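Of 7 measured cuticle genes 3 were higher in flowers and 3 in siliques, 42.9% on each side, where 11.5% and 40.0% of all probe sets were higher in flowers and siliques. AT5G33370 (CUS2), a cutin synthase, was at 584 and 588 in flowers and 106 and 94.5 in siliques, a log2 difference of 1.94 (SE 0.07, adjusted p = 2.1e-12 from limma). CER1, of wax alkane synthesis, was at 7101 and 7364 in flowers and 4165 and 3668 in siliques (0.88), while its partner CER3 was at 5346 and 5324 in flowers and 7080.1 and 6895 in siliques (-0.38), a call lost under both other scalings. SHN3, a factor that controls cutin and wax genes, was higher in siliques (-0.88). Of 3 genes of flavonol and anthocyanin synthesis, DFR and UGT78D1 (-1.16), which attaches rhamnose to flavonols, were higher in siliques. Of 3 senescence genes 2 were higher in flowers, SAG21 and SAG29, a further SWEET sugar carrier, at 2322 and 2190.3 in flowers and 1609.8 and 1558 in siliques (0.49). Of 7 root hair genes, HA7, a proton pump (1.06), and PERK12, a receptor-like kinase (0.58), were higher in flowers, both pollen-high and below the detection level in both organs.

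Several bright silique genes, chosen after their values were seen, lie outside the lists. EXO70H8, an exocyst subunit, was at 3354 and 3666 in siliques and 138 and 142 in flowers (-4.08). GH9C1, of the endoglucanase family, was at 1924 and 1754 in siliques and 50.4 and 47.7 in flowers (-3.98), and in the other sample types it was above the detection level only in root hairs, with 8105 and 8550.1. OCT3, an organic cation transporter, was at 3232 and 3611 in siliques and 169 and 175 in flowers (-3.84), and COBL6, a COBRA-like wall protein, at 1634 and 1582 in siliques and 116 and 125 in flowers (-3.13). RR22, a response regulator of cytokinin signalling, was at 888 and 1106 in siliques and 22.7 and 19.5 in flowers (-3.51), with no array outside siliques above the detection level, and IAA31, of the auxin response, differed by -2.92. PME61, a pectin methylesterase, and GSTU15, a glutathione transferase, had log2 differences of -3.45 and -3.22.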
